A study of Homo sapiens with 27 samples.

Results

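The comparison described here set 22Rv1 cells carrying CPSF1 sh1 against 22Rv1 cells carrying CPSF1 sh2. These are short hairpin RNAs that target the same messenger RNA at different places, so the comparison shows where a pair of reagents for 1 target left the cells in different states. 22Rv1 is an established prostate cancer line that grows without hormone. The series held 27 RNA-seq libraries from 3 lines (LNCaP, LNCaP95 and 22Rv1), of which 6 carried a CPSF1 hairpin in 22Rv1, 3 with each hairpin. The 3 22Rv1 libraries with a control hairpin (CTRL sh) served to tell which hairpin had moved a gene. All 9 22Rv1 cultures had been infected with a pGIPZ lentivirus, passed through puromycin selection at 2 µg/mL, and grown for 72 h from 500000 cells per well in medium with serum. Whether the infected cells were kept as pooled populations or as clones is not given in the sources used here. The replicates of a group were biological replicates, but nothing states that they came from separate infections, so p-values measured the spread between these cultures, and a hairpin cannot be told apart from the infected population that carried it. In a bulk library, fewer cells of a type and less RNA per cell cannot be told apart either.

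CPSF1 encodes the largest subunit of the cleavage and polyadenylation specificity factor, the complex that recognises the AAUAAA signal near the 3′ end of a nascent transcript and directs its cleavage and polyadenylation. Most messenger RNAs pass through this step. Those of the replication-dependent histones do not normally receive a poly(A) tail, and their ends are cut by a related machinery. A hairpin acts through the small RNA processing pathway, and each hairpin sequence can also pair with unintended transcripts, so a gene moved by 1 hairpin alone is usually read with more care than a gene moved by both.

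Between 9599566 and 12167674 read pairs were assigned to protein-coding genes in each 22Rv1 library. The 3 sh1 libraries differed from each other more than the others did. The median SD of a gene across replicates on the log2 CPM scale (counts scaled for library size) was 0.101 with sh1, 0.0644 with sh2 and 0.0578 with CTRL sh. Part of this spread followed gene length and GC content. Across genes, the deviation of sh1 replicate 3 from the mean of the 9 libraries had a Spearman correlation of -0.526 with exon length and 0.569 with GC content, while sh1 replicate 1 leaned the other way at 0.241 and -0.412. The sh2 replicates 1, 2 and 3 also leaned with length, at 0.216, 0.0914 and 0.268. With GC content they were at -0.177, 0.147 and -0.194. In sh1 replicate 3 the median deviation was 0.123 in the shortest decile of genes and -0.194 in the longest. The hairpin difference carried the same slope. Its median fell from 0.074 in the shortest decile of genes to -0.091 in the longest. Once the length and GC trends of every library had been removed, it was -0.015 in the shortest decile and 0.0073 in the longest. For this reason the comparison was repeated with the trends removed and with each library left out, and the larger shifts are given beside the counts.

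**Figure D1:**
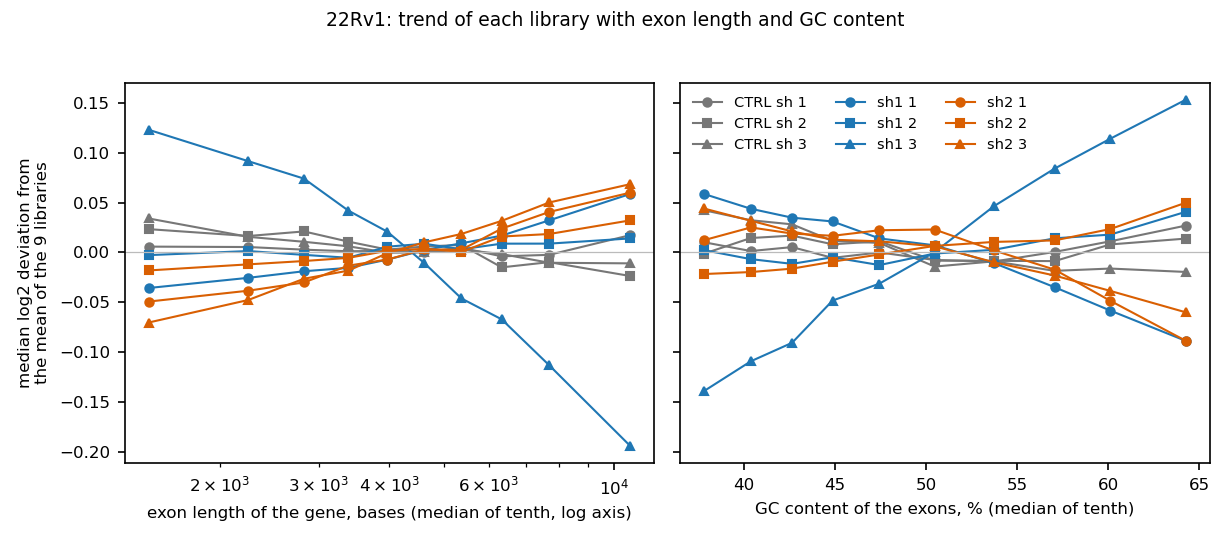
Length and GC trends of the 22Rv1 libraries: the median log2 deviation of each library from the mean of the 9 libraries is plotted over deciles of genes ordered by exon length (bases, log axis) or by GC content (%), with 1 line per library, coloured by hairpin. The sh1 replicates 1 and 3 slope in opposite directions, and sh1 replicate 3 runs from 0.123 in the shortest decile to -0.194 in the longest.

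CPSF1 itself did not differ detectably between the hairpins. The gene (GRCh37, 8:145618444-145634753, minus strand) was measured at 189, 182 and 182 CPM with CTRL sh, at 111, 135 and 137 CPM with sh1 and at 126, 141 and 133 CPM with sh2. The hairpin libraries overlapped each other and all 6 lay below all 3 CTRL libraries. The sh1 minus sh2 difference was -0.07 (log2, SE 0.0688, edgeR quasi-likelihood test, Benjamini-Hochberg adjusted p = 0.578). Against CTRL sh, CPSF1 fell by 0.53 with sh1 (edgeR adjusted p = 5.16e-05) and fell by 0.47 with sh2 (edgeR adjusted p = 5.58e-05). The direction between the hairpins rested on sh1 replicate 1, since the difference was 0.026 without it, and it was -0.10 with the trends removed (edgeR adjusted p = 0.105). CPSF1 protein was not analysed here.

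The hairpins nevertheless left 1327 of 11728 tested genes at different levels, 11.3% of the genes, at an adjusted p under 0.05. Of these, 686 genes (5.85%) were higher with sh1 and 641 (5.47%) were lower. Most differences were small. The median size among the called genes was 0.29 on the log2 scale, 125 genes differed by more than 1.5-fold and 6 by more than 2-fold. The 6 were KLK11, ADCYAP1 and PRR15, higher with sh1, and IGFN1, FN1 and MYL9, lower with sh1. The sh1 and sh2 libraries of a gene did not overlap for 28.6% of tested genes, and 1180 genes were called, did not overlap and stayed called in the same direction with the trends removed. The count moved with single libraries: 2083 genes were called without sh1 replicate 1, 815 without sh1 replicate 2, and 560, 790 and 591 without sh2 replicates 1, 2 and 3. With the trends removed it was 2232, with 9.56% of genes higher and 9.47% lower. In the 6 hairpin libraries alone, where the CTRL libraries took no part in the estimate of spread, it was 643 of 11921 tested genes.

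Set against CTRL sh, more of the differing genes had moved with sh2 than with sh1. With sh1, 19.9% of genes were called against CTRL sh (8.79% higher and 11.1% lower), and with sh2 40.0% (19.1% higher and 20.9% lower). Both of these comparisons use the same 3 CTRL libraries. Of the 1327 genes, 708 (53.4%) were called against CTRL sh with sh2 but not with sh1. A further 424 (32%) were called with both hairpins in the same direction, and in 414 of the 424 the sh2 level was the farther from CTRL sh. Genes called with sh1 alone numbered 70 (5.28%), genes called with neither 117 (8.82%), and 8 genes (0.603%) were called in opposite directions. A gene past the threshold with 1 hairpin and not with the other is assigned by that threshold, and the tested quantity is the sh1 minus sh2 difference. These class counts moved with single libraries. With 1 library left out, genes called with sh2 alone numbered 256 (without sh2 replicate 1) to 1150 (without sh1 replicate 1), genes called with both in the same direction 246 (without sh2 replicate 1) to 619 (without sh1 replicate 3), and genes called with sh1 alone 29 (without sh2 replicate 3) to 222 (without sh1 replicate 1). Genes called with neither numbered 23 (without sh2 replicate 1) to 290 (without sh1 replicate 1), and genes called in opposite directions 4 (without CTRL sh replicate 1) to 20 (without sh1 replicate 1). In the same order the 5 counts were 1050, 842, 139, 186 and 15 with the trends removed. The class called with sh2 alone held the most genes in each of these fits.

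Among the gene lists examined, cholesterol synthesis had the largest share of genes called between the hairpins, although the histone list and the YAP and TGF-beta list, described further on, had larger median differences. Cells make cholesterol from acetyl-CoA through the mevalonate pathway, and SREBP-2, the product of SREBF2, switches the enzymes on when sterols are low, together with NF-Y, a factor that binds the letters CCAAT. Of 24 tested genes of sterol synthesis, uptake and control, 20 were higher with sh1 and none was lower, against 5.85% and 5.47% of all genes, and the median difference was 0.25 against 0.00 for all genes. All 24 were lower with sh2 than with CTRL sh (20.9% of all genes were) and 19 were lower with sh1 (11.1%), and the mean sh1 level lay between the other means in 23 of the 24. The count was 21 with the trends removed and 12 without sh2 replicate 1. The promoters of 4 of these genes are printed here because the genes moved together. RefSeq windows on GRCh38.p14, from 250 bases before the start to 50 after it, were found for 18 of the 24 genes, 15 of them called. The letters CCAAT, searched on both strands, were in 18 of the 23 windows (78.3%), against 34.6% of all 35097 windows and 34.9% of the 13318 windows of tested genes. The sterol regulatory element, searched as TCACNCCAC on both strands, was in 1 window (4.35%), that of SREBF2, against 1.13% of all windows. Capitals mark these letters, with ATTGG where CCAAT is on the other strand. A match is a description of the letters in this window only.

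MSMO1, chr4:165327419-165327718, plus strand: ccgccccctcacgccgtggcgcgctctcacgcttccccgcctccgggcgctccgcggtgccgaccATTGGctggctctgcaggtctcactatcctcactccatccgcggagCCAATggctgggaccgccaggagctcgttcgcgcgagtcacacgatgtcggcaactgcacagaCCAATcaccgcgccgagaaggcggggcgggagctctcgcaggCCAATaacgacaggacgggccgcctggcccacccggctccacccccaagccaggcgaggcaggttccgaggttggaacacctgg
HMGCS1, chr5:43313363-43313662, minus strand: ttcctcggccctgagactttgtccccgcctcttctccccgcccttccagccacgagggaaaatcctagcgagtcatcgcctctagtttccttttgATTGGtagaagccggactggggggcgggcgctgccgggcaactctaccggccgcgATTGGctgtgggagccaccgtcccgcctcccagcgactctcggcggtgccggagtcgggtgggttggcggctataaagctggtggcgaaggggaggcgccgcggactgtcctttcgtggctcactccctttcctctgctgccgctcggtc
STARD4, chr5:111512486-111512785, minus strand: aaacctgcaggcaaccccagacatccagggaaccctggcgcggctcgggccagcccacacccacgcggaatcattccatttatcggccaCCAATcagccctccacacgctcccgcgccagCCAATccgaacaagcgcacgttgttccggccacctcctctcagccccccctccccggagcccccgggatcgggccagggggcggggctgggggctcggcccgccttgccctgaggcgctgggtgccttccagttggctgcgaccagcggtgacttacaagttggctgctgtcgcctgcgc
SREBF2, chr22:41832855-41833154, plus strand: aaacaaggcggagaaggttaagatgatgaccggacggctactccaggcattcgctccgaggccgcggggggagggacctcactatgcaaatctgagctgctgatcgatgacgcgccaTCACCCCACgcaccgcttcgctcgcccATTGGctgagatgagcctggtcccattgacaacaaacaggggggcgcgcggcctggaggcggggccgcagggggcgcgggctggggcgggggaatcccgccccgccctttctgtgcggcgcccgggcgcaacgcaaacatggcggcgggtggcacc

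MSMO1 had 4 CCAAT matches, beginning 185, 139, 76 and 34 bases before the start. HMGCS1 had them at 155 and 100 bases before it in the window printed and none in its other window (chr5:43313132-43313431), and STARD4 had them at 161 and 130. In SREBF2 the sterol element began at 133 bases and the CCAAT match at 106 bases before the start.

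INSIG1, which holds the SREBP precursor in the endoplasmic reticulum and is itself an SREBP target, had the smallest adjusted p of this list. It was measured at 255.8, 254 and 262 CPM with CTRL sh, 200.2, 193 and 194 CPM with sh1 and 136, 139 and 144 CPM with sh2 (7:155089486-155101945, plus strand). The groups were fully separate, in the order CTRL sh, sh1, sh2, and sh1 was higher than sh2 by 0.49 (log2, SE 0.0419, edgeR adjusted p = 4.46e-06). STARD4, a carrier that moves cholesterol between membranes, showed the same order with 74.6, 74.2 and 79.0 CPM, then 57.5, 57.4 and 54.5 CPM, then 40.3, 38.7 and 41.8 CPM (5:110831731-110848288, minus strand), a difference of 0.49 (SE 0.0588, edgeR adjusted p = 0.00012). HMGCS1, the synthase that feeds the mevalonate pathway, was at 493, 490.1 and 531 CPM with CTRL sh, 372, 361 and 343 CPM with sh1 and 292, 284 and 300.0 CPM with sh2 (5:43289497-43313614, minus strand). Its difference was 0.30 (SE 0.0448, edgeR adjusted p = 0.000648). The regulator SREBF2 moved with its targets, at 565, 563 and 551 CPM with CTRL sh, 467, 489.8 and 495 CPM with sh1 and 410.1, 416 and 419.8 CPM with sh2 (22:42229109-42303312, plus strand), a difference of 0.22 (SE 0.0363, edgeR adjusted p = 0.00141). MSMO1, a sterol methyl oxidase, differed by 0.25 (SE 0.0596, edgeR adjusted p = 0.0157), with 132, 123 and 119 CPM with sh1 and 108, 97.3 and 109 CPM with sh2 (4:166248775-166264312, plus strand). Along the pathway, FDFT1 (squalene synthase) was higher with sh1 by 0.37 (edgeR adjusted p = 2.84e-05), MVK (mevalonate kinase) by 0.32, LSS (lanosterol synthase) by 0.25, DHCR7 (a late reductase of the pathway) by 0.27, and FDPS (farnesyl diphosphate synthase) by 0.16, the smallest called difference of the list. In TM7SF2, a sterol reductase, sh1 was not detectably different from CTRL sh (-0.07, edgeR adjusted p = 0.583) and sh2 was lower by 0.55. The tested genes that were not called included CYP51A1 (0.14), SC5D (-0.06) and HSD17B7 (0.23). PMVK, called at 0.24, lost its call with the trends removed (0.12, edgeR adjusted p = 0.154).

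**Figure D2:**
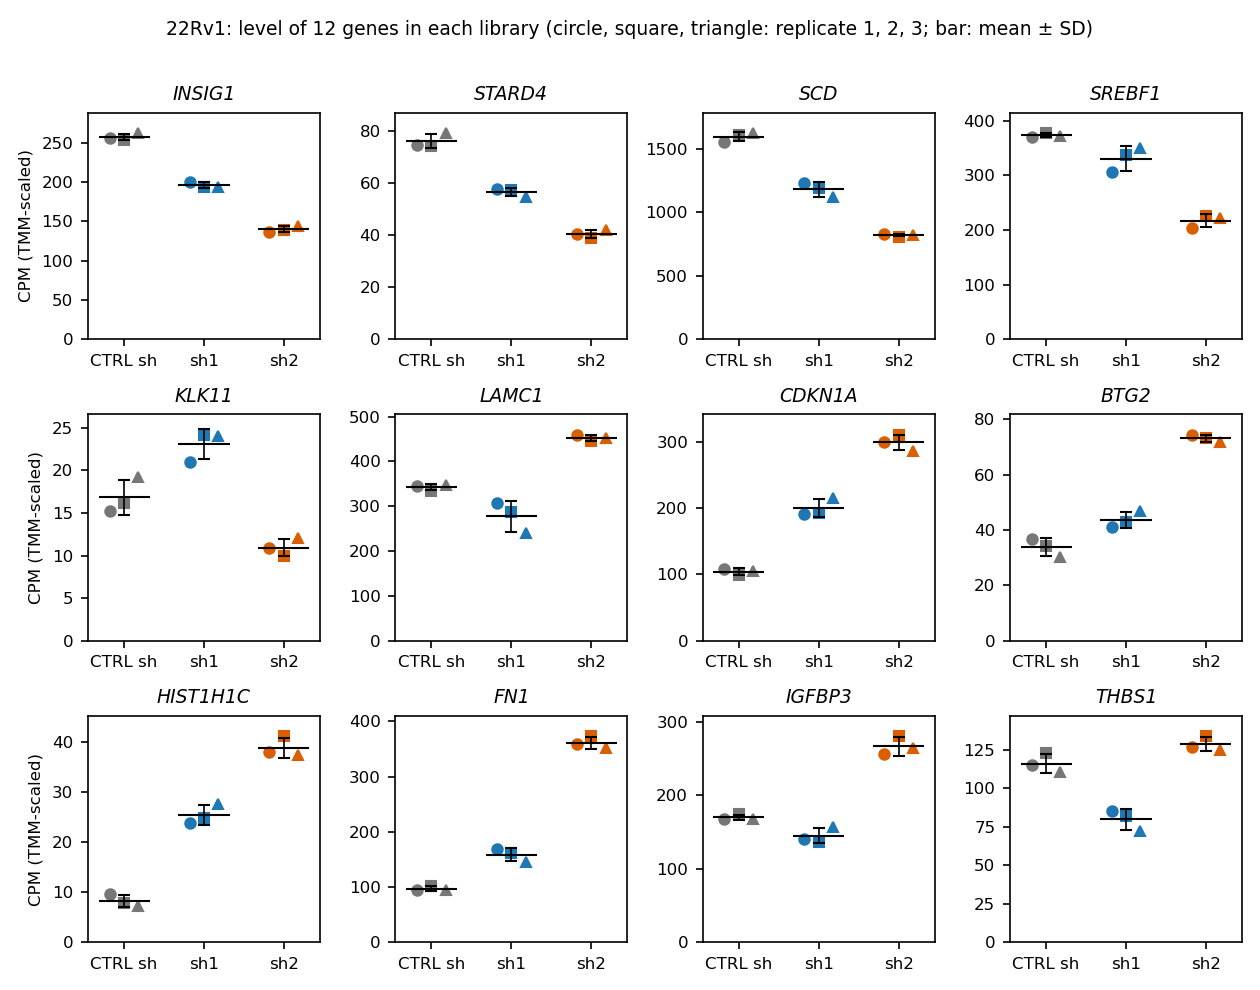
Levels of 12 genes in each 22Rv1 library: points are the CPM of single libraries with CTRL sh, sh1 and sh2, with marker shape for the replicate, and bars are the mean and SD of 3 libraries. The sh1 libraries of INSIG1 sit between 193 and 200.2 CPM, below the CTRL libraries and above the sh2 libraries.

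Fatty acid synthesis and desaturation, under SREBP-1, gave 5 of 10 tested genes higher with sh1 and none lower, against 5.85% and 5.47% of all genes, with a median of 0.22. SCD, the stearoyl-CoA desaturase, was the most abundant of them at 1555, 1610 and 1621 CPM with CTRL sh, 1232, 1192 and 1118 CPM with sh1, and 826, 808 and 824 CPM with sh2 (10:102106881-102124591, plus strand). Its groups were fully separate and sh1 was higher by 0.53 (SE 0.038, edgeR adjusted p = 9.89e-07). SREBF1, which encodes SREBP-1, was at 369, 377 and 373 CPM with CTRL sh, 306, 336 and 349 CPM with sh1 and 204, 226 and 221 CPM with sh2 (17:17713713-17740325, minus strand), a difference of 0.61 (SE 0.0515, edgeR adjusted p = 4.43e-06). FADS2 and FADS1, the desaturases of polyunsaturated fatty acids, were higher with sh1 by 0.50 and 0.31, and ELOVL6, an elongase, by 0.26. The enzymes that build the chain were not called: FASN at 0.11 (edgeR adjusted p = 0.154), ACACA at -0.04 and ACLY at -0.04. With the trends removed the count was 7.

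The amino acid and stress genes driven by ATF4 in the integrated stress response divided. Of 27 tested genes, 8 were higher with sh1 and 2 were lower, against 5.85% and 5.47% of all genes, with a median of 0.13. Against CTRL sh 19 of the genes were lower with sh1 and 21 with sh2, where 11.1% and 20.9% of all genes were lower. PCK2, the mitochondrial phosphoenolpyruvate carboxykinase, was measured at 79.1, 76.99 and 92.0 CPM with sh1 and 58.2, 57.4 and 56.2 CPM with sh2, against 97.2 to 101 CPM with CTRL sh, a difference of 0.53 (edgeR adjusted p = 0.000135). PHGDH, which opens serine synthesis, was at 172, 172 and 192 CPM with sh1 and at 134 CPM in all 3 sh2 libraries after rounding (0.41, edgeR adjusted p = 0.000101). CHAC1, a glutathione-degrading enzyme, differed by 0.70, NUPR1 by 0.28, ASNS (asparagine synthetase) by 0.22, SHMT2 by 0.17 and PSAT1 by 0.14. ATF4 differed by 0.13 (edgeR adjusted p = 0.048), a call lost with the trends removed (0.07, edgeR adjusted p = 0.176). The 2 genes that went the other way were SESN2, a stress-induced inhibitor of growth signalling, at -0.35 and SLC7A5, a large neutral amino acid transporter, at -0.25. The number higher with sh1 was 4 without sh2 replicate 3, 5 without sh2 replicate 1, 5 without sh1 replicate 2 and 11 with the trends removed.

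Genes that the hypoxia-inducible factors control were higher with sh1 where they differed between the hairpins. Outside glycolysis, 12 of 14 tested targets were lower than CTRL sh with sh1 and 13 with sh2, and of 19 tested glycolysis genes 9 were lower with sh1, and 11 were lower and 1 higher with sh2. Of all genes 11.1% were lower than CTRL sh with sh1 and 20.9% with sh2. Between the hairpins, 3 of the 14 targets were higher with sh1 and none was lower (median 0.14), and 4 of the 19 glycolysis genes were higher and none was lower (median 0.06), against 5.85% higher among all genes. The shares called were 21.4% and 21.1%, against 11.3%. With 1 library left out, the glycolysis median ran from 0.024 (without sh1 replicate 3) to 0.084 (without sh1 replicate 2). NDUFA4L2, a mitochondrial protein induced by hypoxia, spanned the widest range, with 47.4, 58.8 and 47.4 CPM with CTRL sh, 13.8, 18.1 and 28.1 CPM with sh1 and 9.04, 10.7 and 11.8 CPM with sh2. The sh1 libraries were spread over a range as wide as their distance from sh2, and the difference of 0.93 (SE 0.209, edgeR adjusted p = 0.0109) was no longer called without sh2 replicate 1 (0.83, edgeR adjusted p = 0.064). BNIP3L, a mitophagy receptor, was higher with sh1 by 0.23 and P4HA1, a collagen prolyl hydroxylase, by 0.22. Among the glycolysis genes ALDOC (an aldolase) was higher by 0.52, SLC16A3 (a lactate exporter) by 0.41, ENO2 (an enolase) by 0.29 and PFKL (a phosphofructokinase) by 0.20. The more abundant enzymes were not called, with GAPDH at 0.07 (edgeR adjusted p = 0.325), PGK1 at 0.06, ALDOA at 0.12 and GPI at -0.05. The HIF count ranged from 0 without sh2 replicate 1 to 6 without sh1 replicate 1 and was 7 with the trends removed, and the glycolysis count from 2 (without CTRL sh replicates 1 or 2, or sh2 replicates 1 or 3) to 7 (without sh1 replicate 1), with 6 when the trends were removed.

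AKR1C3, the reductase that makes testosterone from androstenedione, was among the largest differences. It was measured at 57.5, 65.0 and 64.8 CPM with CTRL sh, 34.8, 33.2 and 33.8 CPM with sh1 and 16.8, 15.6 and 18.9 CPM with sh2 (10:5077546-5149878, plus strand). The groups were fully separate and the difference was 0.99 (SE 0.0849, edgeR adjusted p = 4.46e-06). Its neighbours AKR1C1 and AKR1C2 were higher with sh1 by 0.38 and 0.46. The 3 genes share long stretches of near-identical sequence, so how the authors' counting divided reads among them is uncertain. They formed 3 of the 4 genes called higher among 17 tested NRF2 targets (5.85% of all genes were higher), and the median of that list, 0.04, was -0.02 with the trends removed. The count of that list was 2 to 5 with 1 library left out, reaching 2 without any 1 of the CTRL or sh2 libraries or without sh1 replicate 3.

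Proliferation genes that differed were mostly higher with sh1, by small amounts. Of 40 tested DNA replication and G1/S genes, 9 were higher and 1 was lower (median 0.10), and of 31 tested G2/M and mitosis genes 7 were higher and none was lower (median 0.07), against 5.85% higher and 5.47% lower among all genes. HMMR, a spindle-associated receptor, had the largest of these differences, with 144, 132 and 137 CPM with sh1 and 104, 106 and 114 CPM with sh2, against 148 to 153 CPM with CTRL sh (0.35, edgeR adjusted p = 0.000509). AURKB, a mitotic kinase, was higher with sh1 by 0.28, CCNB2 (a mitotic cyclin) by 0.24, TK1 (thymidine kinase) by 0.26, RRM2 and RRM1 (ribonucleotide reductase) by 0.19 and 0.16, and FEN1 (a flap nuclease) by 0.18. CDC25A, a phosphatase that drives entry into S phase, was lower with sh1 by 0.22, a call lost without CTRL sh replicate 1, sh1 replicate 2, or sh2 replicates 1 or 2. These counts were unsteady. The replication count was 2 without sh2 replicate 1, 5 without sh1 replicate 2, sh2 replicate 2 or sh2 replicate 3, and the mitosis count was 3 without sh2 replicate 2. They were 13 and 10 with the trends removed.

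The p53 targets that differed were lower with sh1. They were 10 of 23 tested genes, with none higher, against 5.47% lower among all genes. The median was -0.22, and against CTRL sh 19 were higher with sh2 and 11 with sh1, where 19.1% and 8.79% of all genes were. CDKN1A, the p21 inhibitor of cyclin-dependent kinases, was measured at 108, 98.8 and 106 CPM with CTRL sh, 191, 193 and 216 CPM with sh1 and 299.8, 310.0 and 286 CPM with sh2 (6:36644305-36655116, plus strand). The 3 groups were fully separate and sh1 was lower than sh2 by 0.58 on the log2 scale (difference -0.58, SE 0.0529, edgeR adjusted p = 8.36e-06). BTG2, an antiproliferative cofactor of messenger RNA deadenylation, was at 41.2, 43.0 and 46.7 CPM with sh1 and 74.3, 73.1 and 71.9 CPM with sh2, and at 30.3 to 36.9 CPM with CTRL sh (-0.75, edgeR adjusted p = 8.36e-06). GDF15, a secreted stress cytokine, was at 35.3, 39.7 and 42.3 CPM with sh1 and 61.6, 69.9 and 58.6 CPM with sh2, against 27.7 to 29.8 CPM with CTRL sh (-0.70, edgeR adjusted p = 6.27e-05). In BTG2 the sh1 libraries stood closer to CTRL sh than to sh2, and in GDF15 they lay between them. MDM2, which turns p53 over, differed by -0.23, BAX (an apoptosis effector) by -0.28, DDB2 and XPC (nucleotide excision repair) by -0.25 and -0.15, SESN1 by -0.31, TNFRSF10B (a death receptor) by -0.25 and SPATA18 by -0.44. The count was 6 without sh2 replicate 1 and 14 with the trends removed.

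The replication-dependent histone genes that could be tested were higher than CTRL sh with both hairpins. Only 6 of the 47 histone genes in the table passed the expression filter in these poly(A)-selected libraries. All 6 were above CTRL sh with each hairpin, where 8.79% of all genes were with sh1 and 19.1% with sh2. The median was 0.92 for sh1 and 1.44 for sh2. Of the 6, 4 were lower with sh1 than with sh2, against 5.47% of all genes. The filter required the level in every library, CTRL sh included. HIST1H1C, a linker histone, was measured at 9.56, 7.89 and 7.30 CPM with CTRL sh, 23.9, 24.9 and 27.7 CPM with sh1 and 38.0, 41.1 and 37.5 CPM with sh2, a difference of -0.61 (SE 0.0837, edgeR adjusted p = 0.000363). HIST2H2BE, an H2B gene, was at 12.7, 15.87 and 15.2 CPM, then 43.0, 41.2 and 41.2 CPM, then 54.8, 59.5 and 58.1 CPM (-0.46, edgeR adjusted p = 0.000604). HIST1H2AC differed by -0.56 and HIST1H2BK by -0.49. The groups of HIST1H1C and HIST2H2BE were separate in the order CTRL sh, sh1, sh2. Histone genes are near-identical copies, so reads may be divided among them with uncertainty, and the count was 3 without sh2 replicate 2 and 5 with the trends removed.

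Matrix, adhesion and cytoskeletal genes held the difference with the smallest adjusted p of all tested genes. FN1, which encodes fibronectin, was measured at 94.99, 102 and 94.3 CPM with CTRL sh, 169, 161 and 146 CPM with sh1 and 359, 373 and 352 CPM with sh2 (2:216225163-216300895, minus strand). The groups were fully separate. The sh1 level lay closer to CTRL sh than to sh2, and the difference was -1.19 (log2, SE 0.0532, edgeR adjusted p = 3.29e-09). Among 24 tested adhesion and matrix genes 7 were lower with sh1 and 3 were higher, against 5.47% and 5.85% of all genes. The median of this list was -0.06, with -0.01 when the trends were removed and 0.011 without sh1 replicate 3. The laminin genes LAMC1 and LAMA3 were lower with sh1 by 0.70 and 0.56, SNAI2 (a transcription factor of epithelial to mesenchymal transition) by 0.38, ITGA6 by 0.53 and ITGB5 by 0.14. The integrin ITGA1 was higher by 0.45 and the tight junction genes CLDN4 and CLDN7 by 0.26 and 0.23. Among 8 tested YAP and TGF-beta targets 5 were lower with sh1 and none was higher (median -0.42). THBS1, a secreted matrix glycoprotein, was at 115, 123 and 110.2 CPM with CTRL sh, 85.4, 82.1 and 72.2 CPM with sh1 and 127, 134 and 125 CPM with sh2 (15:39873280-39891667, plus strand), so here sh1 was the hairpin that moved the gene. Its difference was -0.68 (SE 0.0628, edgeR adjusted p = 8.36e-06), with -0.54 for sh1 against CTRL sh and 0.15 for sh2 (edgeR adjusted p = 0.0657). CTGF showed the same pattern (-0.59, edgeR adjusted p = 0.00778, with 10.9, 8.74 and 10.5 CPM with sh1, 15.1, 15.8 and 14.7 CPM with sh2 and 12.8 to 16.9 CPM with CTRL sh). CYR61, AMOTL2 and SMAD7 differed by -0.55, -0.53 and -0.31, and in these 3 genes sh2 alone was called against CTRL sh. The adhesion count lower with sh1 was 4 without sh1 replicate 2 or without sh2 replicate 2, and the higher count was 1 without sh2 replicate 3.

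Immediate early and MAPK feedback genes gave 4 lower and 1 higher of 22 tested, against 5.47% and 5.85% of all genes, with a median of 0.00. ETV5, an ETS factor induced by MAPK signalling, was at 16.9, 16.9 and 15.2 CPM with sh1 and 25.8, 25.5 and 29.7 CPM with sh2, with CTRL sh between 13.8 and 15.4 CPM (-0.72, edgeR adjusted p = 0.000147). ETV4 and the feedback inhibitor SPRY4 were lower with sh1 by 0.35 and 0.41, and PHLDA1 by 0.40. JUN was higher with sh1 by 0.21, a call lost without CTRL sh replicates 1 or 2, sh1 replicate 2 or any 1 of the sh2 replicates. The lower count was 2 without sh2 replicate 3, and the higher count was 2 without sh1 replicate 1. The median of this list was -0.087 with the trends removed and -0.074 without sh1 replicate 3.

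Luminal prostate genes that differed were higher with sh1. Of 12 tested markers 5 were higher and none was lower (median 0.06), and of 20 tested androgen response genes 5 were higher and 2 were lower (median 0.05), against 5.85% higher and 5.47% lower among all genes. HOXB13 (449, 469 and 488 CPM with sh1, 412, 427 and 411 CPM with sh2, difference 0.17) and FOLH1, which encodes the antigen PSMA (0.18), were raised against CTRL sh with sh1 alone. SLC45A3 and KRT18 were lowered with sh2 alone, with differences of 0.35 and 0.16, and the call of KRT18 was lost with the trends removed (0.08, edgeR adjusted p = 0.12). Among androgen response genes KLK4, a kallikrein protease, was higher with sh1 by 0.33, ACPP (prostatic acid phosphatase) by 0.45 and PMEPA1 by 0.29, while ABCC4 (an efflux transporter) and HERC3 were lower by 0.65 and 0.27. KLK3, which encodes PSA, differed by -0.06 (edgeR adjusted p = 0.647), and KLK2, FKBP5 and TMPRSS2 by 0.05, 0.09 and 0.05, none of them called. The androgen count higher with sh1 was 9 with the trends removed and 8 without sh1 replicate 3, and the lower count 1 without sh2 replicate 1. The luminal count was 2 without sh2 replicate 1 or without sh2 replicate 3, and 3 without sh2 replicate 2. The androgen median was 0.087 with the trends removed and 0.014 without sh2 replicate 1. The luminal median ran from 0.024 without sh2 replicate 1 to 0.11 without sh1 replicate 1.

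The 8 genes moved in opposite directions included KLK11, higher with sh1, and IGFBP3, SATB1, PRICKLE2, TNFSF15, LAMC1 and ADRBK2, lower with sh1. KLK11, a kallikrein-family protease, was at 15.2, 16.1 and 19.1 CPM with CTRL sh, 21.0, 24.1 and 24.1 CPM with sh1 and 10.8, 9.93 and 12.02 CPM with sh2 (19:51525472-51531295, minus strand). CTRL sh lay between the hairpins. The difference of 1.07 (SE 0.111, edgeR adjusted p = 3.07e-05) was the largest among called genes higher with sh1 that were above 2 CPM in every library. IGFBP3, which binds insulin-like growth factors, was at 168, 174 and 167 CPM with CTRL sh, 141, 137 and 156 CPM with sh1 and 255, 279.7 and 264 CPM with sh2 (7:45951949-45961473, minus strand). Its difference was -0.88 (SE 0.0525, edgeR adjusted p = 1.2e-07). LAMC1, the laminin gamma 1 chain, was at 345, 335 and 347 CPM with CTRL sh, 307, 286 and 239.8 CPM with sh1 and 459, 446 and 453 CPM with sh2 (1:182992595-183114727, plus strand), a difference of -0.70 (SE 0.0635, edgeR adjusted p = 7.95e-06). In LAMC1, a long gene, sh1 replicate 3 was the lowest library, and the difference was -0.63 with the trends removed. The chromatin organiser SATB1 differed by -0.87, the planar polarity gene PRICKLE2 by -0.85, the cytokine TNFSF15 by -0.85 and the kinase ADRBK2, which phosphorylates adrenergic receptors, by -0.55.

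Other genes with the largest differences were mostly expressed at low levels. Higher with sh1 were ADCYAP1, a neuropeptide gene, at 5.53, 5.32 and 4.97 CPM with sh1 and 2.71, 2.19 and 2.68 CPM with sh2 (1.05, edgeR adjusted p = 0.00169), and PRR15 at 11.6, 12.3 and 12.2 CPM with sh1 and 5.604, 6.38 and 5.73 CPM with sh2 (1.03, edgeR adjusted p = 4.15e-05). DHRS2, a short-chain dehydrogenase, was at 41.8, 42.4 and 48.3 CPM with sh1 and 22.8, 24.6 and 24.7 CPM with sh2, against 82.3 to 83.5 CPM with CTRL sh (0.88, edgeR adjusted p = 3.13e-06). The homeobox genes HOXA10 and HOXB8 differed by 0.95 and 0.90, the ETS factor FEV by 0.94, CLSTN2 by 0.98, NPY2R by 0.92 and AK7 by 0.87. Lower with sh1 was IGFN1, at 3.41, 5.04 and 4.09 CPM with sh1 and 10.9, 12.1 and 9.25 CPM with sh2 (-1.36, edgeR adjusted p = 8.34e-05). MYL9, a myosin regulatory light chain, was at 4.42, 4.66 and 4.87 CPM with sh1, 10.6, 10.0 and 9.34 CPM with sh2 and 2.72 to 3.07 CPM with CTRL sh (-1.10, edgeR adjusted p = 5.23e-05). EFNB2, which encodes the ligand ephrin-B2, was at 69.7, 65.5 and 62.1 CPM with sh1 and 126, 119.6 and 124 CPM with sh2, against 41.9 to 49.7 CPM with CTRL sh (-0.91, edgeR adjusted p = 4.91e-07). The cadherin CDH12 differed by -0.98, SCGN by -0.93, KCNH5 (a potassium channel) by -0.92, GPER1 by -0.91, DNAH10OS by -0.90, APOE (apolipoprotein E) by -0.90 and LPHN3 by -0.89. Among genes called with sh1 alone, WIF1, a secreted WNT inhibitor, was at 7.91, 8.16 and 8.25 CPM with CTRL sh, 3.96, 4.09 and 4.77 CPM with sh1 and 7.23, 7.32 and 7.12 CPM with sh2 (-0.76, edgeR adjusted p = 0.00171). PTN, the growth factor pleiotrophin, was raised with sh1 alone (0.73) and ANKRD30B was lowered with sh1 alone (-0.59, edgeR adjusted p = 0.0414). ANKRD30B was not called with the replicate number as a block (-0.588, edgeR adjusted p = 0.0544). Nor was it called in the 6 hairpin libraries alone (-0.59, edgeR adjusted p = 0.0668) or by DESeq2 (-0.594, Wald test adjusted p = 0.134). The calls of CLSTN2 and ANKRD30B were lost when single libraries were left out: that of CLSTN2 without sh1 replicate 2 (0.90) or sh2 replicate 1 (0.84), and that of ANKRD30B without any 1 of CTRL sh replicates 2 and 3, sh1 replicates 2 and 3 and sh2 replicates 1 and 3 (-0.45 to -0.64).

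The other lists gave few calls or calls in both directions, and many of these counts moved with single libraries. Of all genes 5.85% were higher and 5.47% lower with sh1, and 9.56% and 9.47% with the trends removed. Among 21 tested cleavage and polyadenylation factors 1 was called, RBBP6, at 159, 159.7 and 130.2 CPM with sh1 and 175, 185 and 177 CPM with sh2 (-0.26, edgeR adjusted p = 0.0187), a call lost without any 1 of the sh2 libraries. The count was 2 with the trends removed and without sh1 replicate 1. None of 13 genes of small RNA processing was called. Their count lower with sh1 was 2 with the trends removed, 6 without sh1 replicate 1, 2 without sh1 replicate 2, and 1 without sh1 replicate 3 or sh2 replicate 2, and their median of -0.14 was -0.04 with the trends removed. Cytosolic ribosomal protein genes, which are short, had 2 of 79 higher (2.5%, against 5.85% of all genes), and 1 of the 2 was RPL13A. Their median of 0.07 was 0.02 with the trends removed. The count was 12 without sh1 replicate 1, 6 with the trends removed, 1 without CTRL sh replicate 1, and 0 without CTRL sh replicate 2, sh1 replicate 2, or sh2 replicates 1 or 3. Nuclear oxidative phosphorylation genes had 2 of 76 higher and 1 lower (4 and 1 with the trends removed), with a median of 0.06 that was 0.01 with the trends removed. The higher count was 11 without sh1 replicate 1, 1 without CTRL sh replicate 2 or sh2 replicate 2, and 0 without sh2 replicates 1 or 3, and the lower count was 0 without any 1 library other than sh1 replicate 3.

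For the lists that follow, the shares of all genes were 5.85% higher and 5.47% lower, and 9.56% and 9.47% with the trends removed. Heat shock genes gave 3 higher (HSPA1A, HSPA1B and HSPB1) and 3 lower (HSP90AA1, HSP90AB1 and DNAJA1) of 14, or 42.9%, against 11.3% of all genes. The counts were 1 and 4 with the trends removed. Both were 0 without sh1 replicate 2 or without sh2 replicates 1 or 3. The higher count was 1 without CTRL sh replicate 2 or sh2 replicate 2, and the lower count was 0 without sh2 replicate 2 and 5 without sh1 replicate 1. Lysosome genes gave 2 higher and 5 lower of 24 (29.2%), and 3 and 7 with the trends removed. Both counts were 0 without sh2 replicate 1. The higher count was 1 without CTRL sh replicate 3, and 0 without CTRL sh replicate 2, sh1 replicate 2, or sh2 replicates 2 or 3. The lower count was 3 without CTRL sh replicate 2 or sh2 replicate 2, 2 without sh1 replicate 2 and 1 without sh2 replicate 3. Ribosome biogenesis genes gave 3 lower of 21, one of them MYC at -0.14, with 7 when the trends were removed and 1 without sh2 replicate 1. Interferon response genes gave 2 higher of 23, OAS3 (0.46) and IFITM2 (0.41), with 1 without sh1 replicate 2 or sh2 replicates 2 or 3 and 4 without sh1 replicate 3. The calls of HSPA1A and HSPA1B, which are near-identical copies, and of RPL13A and IFITM2 were lost with the trends removed. The unfolded protein response gave 1 higher of 17 (HSPA5, 0.11), with 3 without sh1 replicate 1 and 0 without CTRL sh replicate 2, sh1 replicate 2 or any 1 of the sh2 replicates. The aminoacyl-tRNA synthetases gave 1 higher of 20 (YARS, 0.15), and 0 without the same 5 libraries. The proteasome gave 1 higher and 1 lower of 31 (PSMC5 and PSMD2), both 0 without any 1 of the sh2 replicates, and the lower count was also 0 without CTRL sh replicate 2 or sh1 replicates 1 or 2. The mitochondrial genome gave 1 lower of 13 (MT-ND6, -0.37), and 0 without any 1 library other than sh1 replicate 3 and sh2 replicate 3. With the trends removed the lower counts were 4 for the synthetases, 4 for the proteasome and 5 for the mitochondrial genome. None of 5 tested NF-kappaB targets or 8 neuronal genes was called. With the trends removed 1 neuronal gene was higher, and without sh1 replicate 1 there was 1 higher and 1 lower.

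Some genes below the expression filter also stood apart. The genes named here were chosen after their values were seen and several passed the lower filter of edgeR only through the group in which they were high, so their differences are a description with no test. KRT15, a keratin of basal epithelium, was at 1.40, 1.09 and 2.40 CPM with CTRL sh, 6.90, 9.10 and 7.62 CPM with sh1 and 24.2, 24.0 and 22.9 CPM with sh2, a difference of -1.59. Other basal markers did not accompany it: KRT5, KRT14, TP63, KRT6A and DSG3 stayed at or under 0.379 CPM in all 9 libraries. ANKRD1, a YAP target, was at 0.460, 0.569 and 0.781 CPM with sh1 and 1.99, 3.01 and 3.33 CPM with sh2 (-2.18), with CTRL sh at or under 0.411 CPM. CD68, a lysosomal protein used as a macrophage marker, was at 1.84, 2.75 and 2.83 CPM with sh1 and 6.42, 6.95 and 6.66 CPM with sh2, a difference of -1.43. KLK13 was at 1.20, 1.61 and 1.56 CPM with sh1 and 0.452, 0.415 and 0.647 CPM with sh2 (1.496), and VEGFC, a lymphatic growth factor, at 2.48, 1.61 and 2.15 CPM with sh1 and 0.543, 0.415 and 1.67 CPM with sh2 (1.22).

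The labelled cell type was checked against its markers, with CPM computed here on library totals. The summed level of 12 luminal markers was 3764 to 3791 CPM with CTRL sh, 3933 to 3963 CPM with sh1 and 3628 to 3666 CPM with sh2. The 6 basal markers summed to 1.09 to 2.50, 7.36 to 9.58 and 23.5 to 24.7 CPM in the same order, nearly all of it KRT15. The 6 leukocyte markers summed to 1.67 to 2.38, 3.50 to 4.27 and 8.32 to 9.03 CPM, mostly CD68, with CD3E at 0 in every library. The 6 fibroblast markers summed to 24.0 to 25.98, 18.9 to 21.5 and 18.3 to 21.1 CPM, and the 3 endothelial markers to at most 0.293 CPM, with CDH5 at 0. The fibroblast markers did not move together. LUM was higher with sh1 by 0.81, COL1A1 was not called (-0.12, edgeR adjusted p = 0.588), and COL3A1, below the filter, was at 1.104, 1.80 and 1.66 CPM with sh1 and 2.71, 2.80 and 1.94 CPM with sh2. The part of these marker levels in the differences above was not tested.

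CPSF1 loss can let transcription run past the end of a gene into the next one, so genes lying just downstream of an active gene were examined. A score per library compared 565 such genes, within 10 kb downstream of an active gene on the same strand, with 6849 genes that have no gene upstream within 50 kb. It was -0.110, -0.114 and -0.157 with CTRL sh, -0.0363, 0.0666 and 0.170 with sh1 and 0.0624, 0.129 and 0.0800 with sh2. All 6 hairpin libraries lay above the 3 CTRL libraries, and the hairpins overlapped. The sh1 minus sh2 difference was -0.0237 (two-sided exact permutation p = 0.8, with 0.1 the smallest p this design allows). It was 0.0277 without sh1 replicate 1 and -0.0752 without sh1 replicate 3, the libraries with the opposite length trends. Of 308 such genes that passed the filter 20 (6.49%) were higher and 12 (3.9%) lower with sh1, with a median of 0.01, against 5.85% and 5.47% of all genes. The counts were 20 and 33 (6.49% and 10.7%) with the trends removed, when 9.56% and 9.47% of all genes were higher and lower.

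The same hairpins were also compared in LNCaP, a hormone-sensitive prostate cancer line, and in LNCaP95, its hormone-insensitive derivative. Selection used puromycin at 2 µg/mL in LNCaP, as in 22Rv1, and at 1 µg/mL in LNCaP95, and line and dose cannot be told apart in the comparison with LNCaP95. In LNCaP 14.8% of genes were called between the hairpins (8.24% higher and 6.53% lower with sh1) and in LNCaP95 34.1% (17.7% and 16.5%). Of 10317 genes tested in all 3 lines, 1090 were called in 22Rv1. Of these, 229 were called the same way in LNCaP, 21.0% of the 22Rv1 calls and 15.2% of the LNCaP calls, and 93 the other way. In LNCaP95 420 were called the same way, 38.5% of the 22Rv1 calls and 11.9% of the LNCaP95 calls, and 92 the other way. The hairpin difference itself differed between 22Rv1 and LNCaP for 7.59% of genes (4.0% higher and 3.59% lower in 22Rv1) and between 22Rv1 and LNCaP95 for 18.1% (8.61% and 9.51%), both by an interaction term in edgeR at an adjusted p under 0.05. The number called the same way in all 3 lines was 122, 87 higher and 35 lower with sh1 (66 without sh2 replicate 1 to 146 without sh1 replicate 1). It included NMB, which encodes neuromedin B (0.76 in 22Rv1, 1.03 in LNCaP, 0.76 in LNCaP95), STARD4 (0.49, 0.64, 0.87), TM7SF2 (0.48, 0.45, 0.46), KLHL28 (0.45, 0.58, 0.94), FAM211B (0.45, 0.44, 0.59) and RAB26 (0.47, 0.40, 0.43) among the higher. Among the lower were FN1 (-1.19, -0.33, -0.60), COL4A6 (-0.63, -0.31, -0.57), KCNAB3 (-0.58, -0.36, -0.56), SERPINE2 (-0.48, -0.57, -0.73), NRP1 (-0.47, -0.37, -0.97) and PHLDA1 (-0.40, -0.72, -0.50). In 22Rv1, sh1 libraries of KCNAB3 were at 13.0, 17.7 and 13.7 CPM and sh2 libraries at 19.98, 22.7 and 23.9 CPM, against 4.04 to 4.53 CPM with CTRL sh. The 22Rv1 call of FAM211B was lost without sh1 replicate 3 (0.26) or any 1 of the sh2 replicates (0.43 to 0.49). That of SERPINE2 was lost without CTRL sh replicate 2, sh1 replicate 2, or sh2 replicates 1 or 3 (-0.40 to -0.48), and that of COL4A6 without sh2 replicates 1 (-0.53) or 2 (-0.57). RAB26 was not called without sh2 replicate 2 (0.41), nor PHLDA1 without sh2 replicate 3 (-0.36).

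The lists were also counted in the other lines, where the shares of all genes higher and lower with sh1 were 8.24% and 6.53% in LNCaP and 17.7% and 16.5% in LNCaP95. The shares of all genes with an interaction called higher and lower in 22Rv1 were 4.0% and 3.59% against LNCaP and 8.61% and 9.51% against LNCaP95. Cholesterol synthesis had more genes higher than lower with sh1 in both lines. In LNCaP 17 of 23 tested genes were higher with sh1 and none was lower (median 0.18), and in LNCaP95 11 were higher and 2 were lower (median 0.16). The interaction was called for 4 of the 23 against LNCaP (3 higher and 1 lower in 22Rv1) and for 8 against LNCaP95 (6 and 2). The p53 list had 5 higher and 3 lower of 23 in LNCaP (median 0.06) and 8 higher and 2 lower in LNCaP95 (median 0.06), and the interaction was called lower in 22Rv1 for 12 genes against LNCaP and 14 against LNCaP95. The stress response list had 1 higher and 17 lower of 26 in LNCaP (median -0.25) and 22 higher and none lower of 27 in LNCaP95 (median 0.28). Its interaction was called higher in 22Rv1 for 15 of 26 against LNCaP, and lower for 10 and higher for 1 against LNCaP95. The HIF list had 0 higher and 5 lower of 14 in LNCaP and all 14 higher in LNCaP95 (medians -0.15 and 0.61), and the interaction was called higher in 22Rv1 for 4 against LNCaP and lower for 11 against LNCaP95. Of 40 DNA replication genes 19 were lower with sh1 in LNCaP (median -0.14), and in LNCaP95 26 were lower and 1 was higher (median -0.19). The interaction was called higher in 22Rv1 for 16 and 28 of them. Of 31 mitosis genes 23 were lower with sh1 in LNCaP and 12 were higher in LNCaP95, and the interaction was called higher in 22Rv1 for 19 against LNCaP, and lower for 4 and higher for 1 against LNCaP95. The 4 histone genes lower with sh1 in 22Rv1 had no such difference in LNCaP, where 3 of 6 were higher, and the interaction was called for all 4 of them, lower in 22Rv1. In LNCaP95 2 of 6 were lower and the interaction was called for 2.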

How the data were processed

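The authors extracted total RNA from 3 biological replicates per group, made poly(A)-selected stranded libraries, aligned the reads to GRCh37 with HISAT2 (2.1.0 in the submitters' processing notes) and counted them per gene with featureCounts of Subread (2.0.3 in the notes) set to reverse-stranded. The deposited table holds these raw read counts for 20268 protein-coding gene symbols in 27 libraries, not normalized. Gene coordinates, exon lengths and GC content come from the annotation of that build.

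From the counts, genes above 2 CPM in all 9 22Rv1 libraries were kept (11728 genes), scaled by TMM and fitted with 3 groups by edgeR 4.0.16 (quasi-likelihood F-test, R 4.3.3), with Benjamini-Hochberg adjustment over all tested genes and a threshold of 0.05. The CTRL libraries share in the estimate of spread. CPM in the text is TMM-scaled except for the cell type marker check and the genes below the expression filter, which use library totals. Fold changes are log2 of sh1 over sh2 unless another pair is named, and a gene is called when it passes the threshold. Length and GC trends were removed with a lowess curve (span 0.3) per library, entered as offsets. The fitting procedure was tested on simulated data. The biological coefficient of variation was 4.549%. Each SE was computed from the log2 difference and its quasi-likelihood F statistic.

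The genes named were the 12 largest differences in each direction among genes called, not overlapping and called with the trends removed. Added to these were the 6 largest of each class against CTRL sh, except the class called with neither hairpin. Also named were the 6 largest in each direction called the same way in all 3 lines, members of 33 gene lists, and CPSF1. The members and lists were chosen with earlier results of these data known. Alternatives covered the scaling, the filter, the test (DESeq2 1.42.0), the threshold, the trends, the replicate number as a block, the 6 hairpin libraries alone, and each library left out. The hairpin sequences were not used here, and some named genes are not reported here.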

Additional observations from a re-analysis of the deposited data

Results flagged for a closer look

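The effect of choosing sh1 or sh2 differed between cell lines for many genes, which was tested by an interaction term in edgeR at an adjusted p under 0.05. Against LNCaP the difference was called for 783 of 10317 genes, and against LNCaP95 for 1869. Both comparisons use the same 22Rv1 libraries.

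Among the genes with the largest differences in 22Rv1, several had another difference elsewhere. The interaction (22Rv1 difference minus that of the other line, log2) of NDUFA4L2 against LNCaP was 2.40, since the gene was higher with sh1 in 22Rv1 (0.93) and lower with sh1 in LNCaP (-1.47). For IGFBP3 it was -1.36 against LNCaP, where the gene was higher with sh1 (0.48), and 1.45 against LNCaP95, where it was lower with sh1 by more than in 22Rv1 (-2.33). FN1 gave -0.85 against LNCaP and -0.58 against LNCaP95, and was lower with sh1 in all 3 lines. GPER1 gave -1.16 and -1.20, EFNB2 -0.72 and -0.39, TNFSF15 -1.06 and -0.48, LAMC1 -0.70 and -0.58, and AK7 1.14 and 0.78, in each case against LNCaP and then LNCaP95. Against LNCaP95 alone, STARD4 gave -0.38, KLHL28 -0.48 and NRP1 0.50, with the same direction of the hairpin difference in every line. The cause of these differences was not tested.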

How the results depend on the processing

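The number of genes called between the hairpins in 22Rv1 (1327) was within 1.5 times of that value under RLE scaling (1322), library size alone (1335), the lower filter (1441), no filter (1631), the newer quasi-likelihood form of edgeR (1326) and DESeq2 (899). It moved to 2232 (1121 higher, 1111 lower) with the length and GC trends removed, to 643 (348 and 295) in the 6 hairpin libraries alone, to 448 (250 and 198) at an adjusted p under 0.01, and to 6 (3 and 3) with a log2 difference above 1 as well. Leaving out 1 library gave 560 to 2083 calls (301 to 1024 higher, 259 to 1059 lower), the extremes being without sh2 replicate 1 and without sh1 replicate 1. Against CTRL sh the counts were 1541 to 3042 for sh1 and 3656 to 5921 for sh2 with 1 library left out, and 3574 for sh1 with the trends removed. Between the hairpins, the counts with 1 library left out were 1049 to 1545 in LNCaP and 2599 to 3308 in LNCaP95. With the trends removed, an alternative added after seeing the data, the difference between 22Rv1 and LNCaP was called for 1275 genes. The CPSF1 difference ran from -0.119 to 0.026 with 1 library left out, turning positive without sh1 replicate 1. Whether the replicate numbers paired the samples is not settled by correlations between libraries. Same-numbered sh1 and sh2 libraries correlated at 0.196, -0.0303 and -0.111, where their other pairs ran from -0.278 to 0.253. Same-numbered CTRL sh and sh2 libraries correlated at 0.055, 0.0624 and 0.0567, where their other pairs ran from -0.0503 to -0.00386. Same-numbered CTRL sh and sh1 libraries were at -0.00438, -0.0478 and -0.0438. With the replicate number as a block the count was 1199, and 2346 (1172 higher, 1174 lower) with the trends removed too. The block gave 2164 calls in LNCaP and 3789 in LNCaP95. Of 924 values of 44 other named genes none changed direction and 73 fell short of the threshold, 38 of them for the size limit. All 44 had hairpin libraries that did not overlap and stayed called in the same direction with the trends removed. Their steady direction was therefore largely fixed by how they were picked. Genes named only as members of a gene list are not among the 44. The downstream score difference ran from -0.0752 to 0.0277. The depth of each library limits what can be said of genes under 2 CPM.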

Other observations

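Genes called between the hairpins in 22Rv1 differed in length and composition. Among genes called, not overlapping and still called with the trends removed, the median exon length was 3368.5 bases for those higher with sh1, 5654.5 bases for those lower and 4273.5 bases among all tested genes, and the median GC content was 53.1%, 47.5% and 48.9%. In the shortest decile of tested genes 10.6% were called higher with sh1 and 2.13% lower, and in the longest decile 2.22% and 11%. The genes behind these medians also had to be called with the trends in place, so the choice itself favoured short genes among the higher and long genes among the lower. With the trends removed the median hairpin difference lay between -0.015 and 0.011 in every length decile. The sh2 libraries also leaned with length, with Spearman correlations of 0.216, 0.0914 and 0.268 for replicates 1, 2 and 3. Whether length and composition are linked to the hairpins or to the trends of single sh1 and sh2 libraries was not tested.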
